A study of Mus musculus with 9 samples.

Results

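The genes examined were 9 genes of sprouting retinal endothelium, namely the secreted peptides Apln and Adm, the receptors Aplnr, Unc5b and Cxcr4, the matrix proteins Esm1 and Nid2, the potassium channel subunit Kcne3 and the ectoenzyme Nt5e. Their members on the arrays were all probe sets that the platform annotation assigned to exactly 1 of these symbols, which gave 17 of 36701 probe sets for 9 of 15964 genes. Design A carried 6 of them, design B 9 and design C 2. The arrays held RNA of GFP-positive cells sorted by FACS from retinas of postnatal day 8 mice homozygous for a Tie2-GFP transgene, in which GFP is driven by the Tie2 promoter of endothelial cells. All mice had received intraperitoneal injections of APB5, a neutralizing antibody against PDGFRb, from postnatal day 0 to 7. Retinas were pooled, RNA was amplified, and each of the complementary Affymetrix MG-U74v2 designs A, B and C was hybridised in 3 replicates, 9 arrays in total. There was 1 condition, so what APB5 did to these genes cannot be read from the arrays, and the labels do not say whether replicates were separate pools of mice.

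During vessel growth, a leading tip cell extends filopodia into tissue that has no vessels yet, while stalk cells behind it proliferate and form the lumen. VEGF signalling favours the tip state and Notch signalling from the tip cell restrains it in its neighbours. In the early postnatal mouse retina, where vessels spread across the surface and then dive into deeper layers, Apln and Esm1 are widely used markers of tip cells, and Aplnr, the G protein-coupled receptor for apelin, is known from the endothelium behind the front and from veins. Adm, Cxcr4, Unc5b, Nid2, Kcne3 and Nt5e are other genes that have been linked to tip cells.

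Each value is a deposited linear intensity in arbitrary units. Its position is the percentile of the probe set among all probe sets of the same array, from 0 to 100. Positions depend on the probes as well as on the transcript, so the genes were not ordered by level, and a transcript may be there even where its probe set lies low. As a guide to signal without transcript, 46 genes of tissues such as pancreas, liver, testis and lung, called tissue-foreign below, were used, of which 42 were measured. The 90th percentile of their probe sets' positions set a threshold, which was percentile 68.8 for design A and percentile 84.5 for design C. Design B held 4 such probe sets, fewer than the 10 required, and took the threshold pooled over designs, percentile 69.96. In intensity units the threshold lay between 76.0 and 78.7 on the arrays of designs A and B and between 94.9 and 102.1 on those of design C.

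By their highest probe set, the tip genes fell into 3 groups, which depend on the probes and do not order the genes by level. For Apln, Aplnr, Unc5b and Esm1, 1 probe set each lay among the strongest signals of design B on all 3 arrays. The other probe sets of Apln and Unc5b were below the threshold. Kcne3, and Nid2 by 1 of its 2 probe sets, exceeded the threshold but not percentile 90. Adm and Cxcr4 had no probe set on design B. No probe set of Adm, Cxcr4 or Nt5e exceeded the threshold on any array. In all, 4 of 17 probe sets were in the top 10% on all 3 arrays, against 9.45% of the 29131 probe sets with 1 gene symbol, and 7 of 17 exceeded the threshold on all 3 arrays, against 25.9%. The remaining 10 were below it on every array. All 4 top probe sets were on design B, where 4 of 9 tip gene probe sets were in the top 10% against 9.33% of named probe sets, whereas designs A and C together had 0 of 8 (background 9.52%). Above the threshold were 5 of 9 on design B (background 29.5%) and 2 of 8 on designs A and C (background 23.8%). The median position of the 17 probe sets was percentile 60.7, against 52.1 for all named probe sets.

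**Figure D1:**
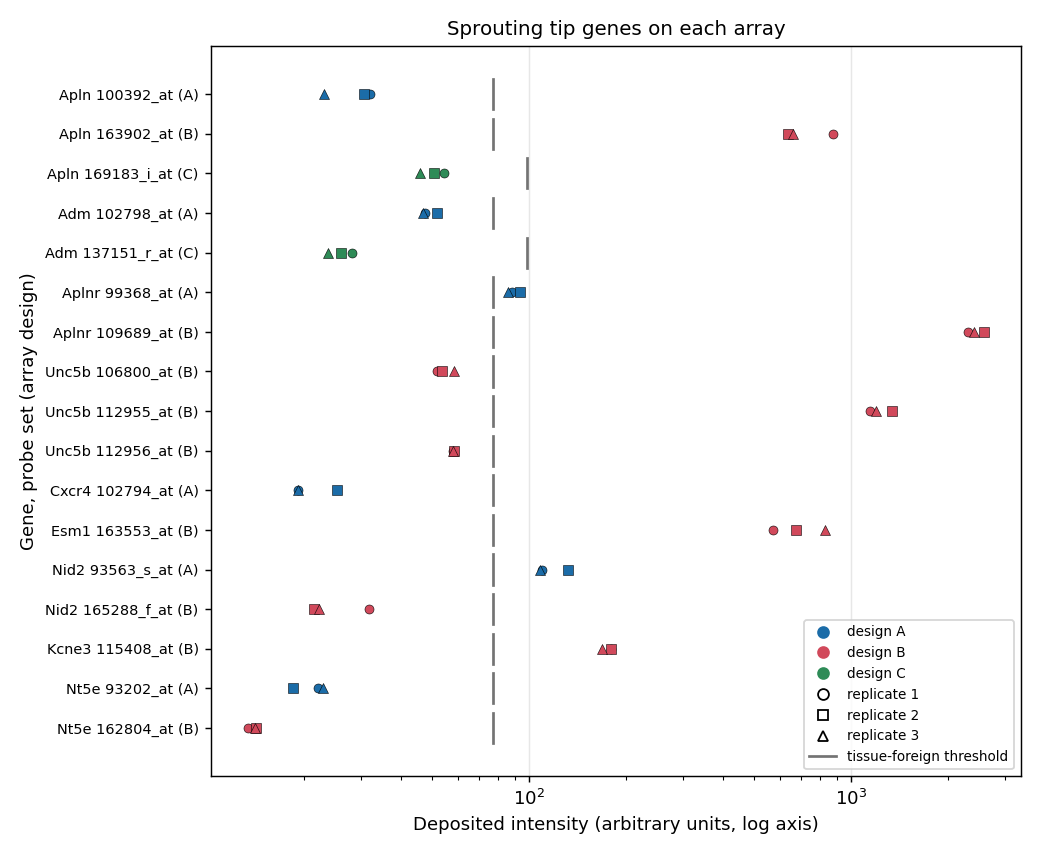
Deposited intensity (log axis) of each tip gene probe set on its 3 arrays, coloured by array design, with marker shape giving the replicate and a grey tick at the design's mean tissue-foreign threshold. One probe set each of Apln, Aplnr, Unc5b and Esm1, all on design B, reads at least 571 on every array, while no probe set of Adm, Cxcr4 or Nt5e reads above 51.7.

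Counted by gene, 4 of 9 tip genes had at least 1 probe set in the top 10% on all 3 arrays, against 15.4% of all named genes, and 6 of 9 had at least 1 above the threshold, against 38.2%. Genes with more probe sets pass such counts more easily, and the tip genes had 1.89 probe sets per gene on average, close to the 1.82 of all named genes. Of the 6 tip genes above the threshold, Apln, Unc5b and Nid2 also had a probe set below it. Counts with all probe sets of a gene averaged were not made for the tip genes. The median position of the highest probe set per gene was percentile 88.3 for the tip genes and 65.9 for all named genes.

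Apelin is a short secreted peptide cut from a longer precursor. On design B, its probe set 163902_at read 879, 634 and 657 in replicates 1, 2 and 3, with ranks of 105, 140 and 165 from the top among 12411 probe sets. This placed it at percentile 98.9 ± 0.24 (SD, n = 3 arrays). Replicate 1 was the highest of the 3 arrays and the other 2 were close together. The 2 other probe sets of Apln gave low signals. On design A, 100392_at read 32.1, 30.6 and 23.1, at percentile 32.5 ± 7.8, and on design C, 169183_i_at read 54.3, 50.6 and 45.6, at percentile 66.4 ± 2.8 (SD, n = 3 each). Both were below the threshold on all 3 arrays, and the gap between the lowest and highest probe set of Apln was 66.4 percentile points, the widest among the 6 tip genes with several probe sets. The suffix i on the design C probe set marks an incomplete probe selection in the platform's naming.

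Aplnr was high by one probe set and modestly above the threshold by the other. On design B, 109689_at read 2301, 2577 and 2397, at ranks 17, 7 and 11 of 12411 and percentile 99.91 ± 0.041 (SD, n = 3). Its coefficient of variation over the 3 arrays was 5.79%. On design A, 99368_at read 88.3, 93.8 and 85.9, at percentile 72.5 ± 0.67. All 6 readings thus exceeded the threshold of their array, which made Aplnr the one gene among the 6 with several probe sets for which every probe set did so. Replicate 2 was the highest on both designs, although replicates of equal number on different designs are not known to share RNA.

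The list of apelin pathway partners was short on these arrays, with 3 of 4 genes measured and 1 above the threshold (background 38.2% of named genes). Furin, a proprotein convertase, read 265, 268 and 277 on design A, at percentile 90.5 ± 0.65 (SD, n = 3). The neutral endopeptidase Mme, which degrades small peptides, had 5 probe sets, and the highest averaged percentile 44.4 ± 8.3 on design B. Apela, which encodes the second known ligand of Aplnr, lay at percentile 5.46 ± 1.7 on design C.

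Adm encodes adrenomedullin, a vasoactive peptide that acts through the receptor Calcrl paired with a Ramp protein. On design A, 102798_at read 47.4, 51.7 and 46.7, at percentile 53.8 ± 1.9, and on design C, 137151_r_at read 28.1, 26.1 and 23.7, at percentile 40.8 ± 3.3 (SD, n = 3 each). Both lay below the threshold on every array, in the middle of the range of all probe sets, and the replicates were close. The suffix r marks a probe set that did not meet all of the platform's selection rules.

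Of the adrenomedullin partners, 2 of 6 measured genes exceeded the threshold (background 38.2% of named genes), and both were Ramp genes. Ramp2, whose protein makes Calcrl an adrenomedullin receptor, read 481, 543 and 541 on design A, at percentile 95.7 ± 0.63 (SD, n = 3). Ramp3 read 145, 90.6 and 125 on design B, at percentile 80.7 ± 5.1, and lower on design A, at percentile 48.7 ± 4.1. Calcrl itself gave readings of 15.6, 10.9 and 21.2 by its highest probe set, on design B, at percentile 14.5 ± 7.0, so the signals of the receptor and its accessory proteins lay far apart in position.

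Unc5b is a receptor for netrins that also binds Robo4, and in mouse it is known from arterial and tip cell endothelium. It had 3 probe sets, all on design B, so they were read on the same arrays. Probe set 112955_at read 1140, 1341 and 1194, at ranks 64, 24 and 46 of 12411 and percentile 99.65 ± 0.16 (SD, n = 3). The other 2 were below the threshold on all arrays. Probe set 106800_at read 51.7, 53.6 and 58.2, at percentile 58.4 ± 2.0, and 112956_at read 58.0, 58.4 and 57.8, at percentile 60.7 ± 0.74 (SD, n = 3 each). The difference between the probe sets of Unc5b was 41.3 percentile points, many times the spread between arrays.

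Among partners of Unc5b, 4 of 9 measured genes exceeded the threshold by their highest probe set, close to the background of 38.2% of named genes. Flrt3, a leucine-rich repeat transmembrane protein of a family that binds Unc5 receptors, read 184, 190 and 196 on design C, at percentile 93.1 ± 0.79 (SD, n = 3), but its lowest of 5 probe sets lay at percentile 2.13 ± 1.9. Robo4, the endothelial Roundabout receptor, read 229, 217 and 200 on design B, at percentile 91.2 ± 0.87. The related netrin receptor Unc5c lay at percentile 21.1 ± 0.73 on design A. The netrin genes themselves were below the threshold, with Ntn1 at percentile 46.6 ± 4.4 on design A and Ntn4 at 33.3 ± 5.4 on design C. These netrins are named in addition to the genes fixed by rule because they are the ligands, and they were chosen after their values were seen.

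Cxcr4, the receptor for the chemokine Cxcl12, was represented by 1 probe set. On design A, 102794_at read 19.2, 25.3 and 19.1, at percentile 22.0 ± 5.7 (SD, n = 3), with replicate 2 above the other 2 and all 3 far below the threshold. Its ligand gene Cxcl12 read 575, 577 and 661 on the same arrays, at percentile 96.4 ± 0.58, and the lowest of its 4 probe sets lay at percentile 51.8 ± 1.4 on design B. Ackr3, the decoy receptor that also binds Cxcl12 and adrenomedullin, lay at percentile 20.7 ± 2.3 on design A.

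Esm1 encodes endocan, a secreted dermatan sulphate proteoglycan. Its single probe set, 163553_at on design B, read 571, 673 and 828 in replicates 1, 2 and 3. The ranks were 228, 123 and 96 of 12411, and the position was percentile 98.8 ± 0.56 (SD, n = 3). Replicate 3 was highest for Esm1, whereas on the same 3 arrays replicate 1 was highest for Apln and replicate 2 for Aplnr and for the strong Unc5b probe set. The array with the highest reading thus differed between these genes, although all of these probe sets were in the top 10% on every array. The genes of proteins reported to bind endocan gave low signals. Itgal and Itgb2, the chains of the leukocyte integrin LFA-1, lay at percentiles 40.6 ± 3.7 and 13.0 ± 0.35 on design A, and the growth factor gene Hgf at 5.94 ± 3.4. This made 0 of 3 above the threshold (background 38.2% of named genes).

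Nid2 encodes nidogen-2, which links laminin and type IV collagen in basement membranes. On design A, 93563_s_at read 109, 131 and 108, at percentile 77.9 ± 1.7 (SD, n = 3), above the threshold on all 3 arrays. On design B, 165288_f_at read 31.8, 21.5 and 22.2, at percentile 28.0 ± 8.4, below it on all 3. The suffixes s and f mark probe sets that may match more than 1 transcript, so neither Nid2 signal is certain to come from Nid2 alone. Of its partners, the laminin chain Lamc1 read 490, 475 and 423 on design A, at percentile 94.9 ± 0.19, with its other probe set at 32.3 ± 2.1. The related nidogen Nid1 and the perlecan gene Hspg2 lay at percentiles 57.1 ± 8.2 and 61.3 ± 2.9, below the threshold.

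Kcne3 encodes a small accessory subunit of voltage-gated potassium channels. Its single probe set, 115408_at on design B, read 179, 180 and 168, at percentile 88.3 ± 0.72 (SD, n = 3). The coefficient of variation was 3.54%, so the 3 arrays gave nearly the same signal, above the threshold and just short of the top 10% on each. Among 5 measured potassium channel partners and relatives, Kcnc4, a pore-forming subunit, was the one above the threshold (background 38.2% of named genes). Kcnc4 read 78.5, 85.6 and 83.4 on design B, at percentile 72.0 ± 1.7. Kcnq1, the best known pore-forming partner of Kcne3 in epithelia, lay at percentile 54.2 ± 0.57 on design A and the related subunit gene Kcne2 at 14.5 ± 1.3 on design C.

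Nt5e encodes CD73, the surface enzyme that makes adenosine from AMP, and lay low with both of its probe sets. On design A, 93202_at read 22.0, 18.4 and 22.9, at percentile 21.7 ± 3.5, and on design B, 162804_at read 13.4, 14.2 and 14.1, at percentile 11.3 ± 0.67 (SD, n = 3 each). No array of either design came near the threshold. Of 7 other measured genes of adenosine handling, 4 exceeded the threshold by their highest probe set (background 38.2% of named genes). The nucleoside transporter Slc29a1 read 292, 456 and 363 on design A, at percentile 93.1 ± 1.8, with its other probe set at 34.7 ± 5.7. Adenosine deaminase, Ada, read 315, 194 and 210, at percentile 88.9 ± 2.7, with the lowest of its 3 probe sets at 27.3 ± 0.67. Slc29a2, a second nucleoside transporter, lay at percentile 30.4 ± 2.5. The 4 adenosine receptor genes had no probe set with a single symbol.

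Probe sets of the same gene disagreed for several tip genes. Of the 6 genes with several probe sets, Apln, Unc5b and Nid2 lay on both sides of the threshold, Aplnr lay above it with both, and Adm and Nt5e below it with both. Cxcr4, Esm1 and Kcne3 rest on 1 probe set each. Of the 13 probe sets with plain names 6 were above the threshold, and of the 4 with a suffix 1 was. The shares of plain and suffixed names above it among all named probe sets were not computed. These counts therefore do not relate the suffix to the signal. What makes probe sets of 1 gene differ was not tested, since probe sequences were not used here.

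Replicate error was small beside these differences. The log2 intensity of the 17 probe sets ranged by 0.015 to 0.56 over the 3 arrays, and 0 of 17 ranged by more than 1 log2 unit, against 1.75% of named probe sets. The median SD was 0.12 on the log2 scale for the tip genes and 0.13 for all named probe sets. Compared with probe sets in the same signal decile of their design, 9 of 17 spread more than the median, and 5 were above percentile 80 of that decile's spread. These 5 were the Apln probe sets on designs A and B, Cxcr4, Esm1 and Nid2 on design B. Esm1 and Apln were therefore the least precise of the strong signals, with coefficients of variation of 18.7% each, against 8.51% for Unc5b.

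**Figure D2:**
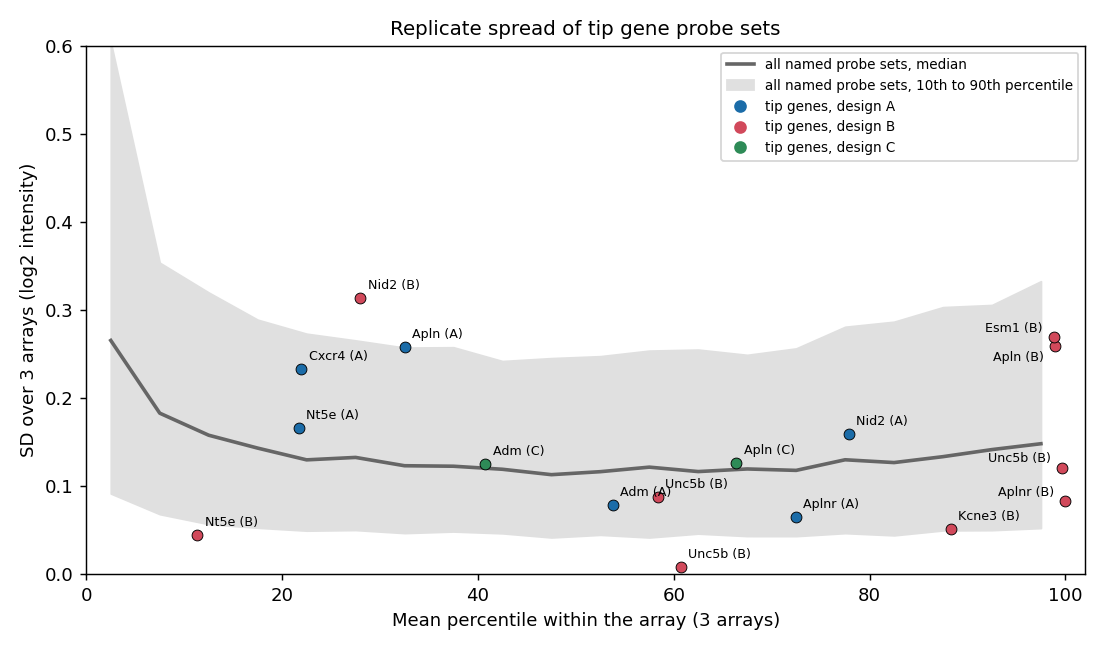
SD of log2 intensity over the 3 arrays of a design plotted against mean percentile within the array, with tip gene probe sets as points coloured by design, the median of all named probe sets as a line and their 10th to 90th percentile as a grey band. Most tip gene probe sets lie inside the band. Nid2 on design B lies above it and Apln on design A at its upper edge, while Unc5b 112956_at and Nt5e on design B lie below it. Apln and Esm1 on design B lie well above the line at the right edge.

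Other genes linked to tip cells were more often above the threshold than not. A list of such genes left out the 9 tip genes described first, and all 18 of its genes were measured. Of these, 15 exceeded the threshold (background 38.2% of named genes) and 10 were in the top 10% on all 3 arrays (background 15.4%). Their median position was percentile 91.4 by the highest probe set, against 65.9 for all named genes. They had 1.61 probe sets each on average. The list shares Robo4 and Nid1 with the partner genes and Kdr with the endothelial markers, so these counts overlap. Kdr, the main VEGF receptor, read 1863, 1942 and 1349 on design A, at percentile 99.3 ± 0.27 (SD, n = 3). Its other probe set lay at 49.6 ± 1.6 on design C. Igfbp3, a secreted binding protein of insulin-like growth factors, read 855, 1059 and 764, at percentile 97.8 ± 0.35, with a second probe set at 35.8 ± 3.6. Vldlr, a lipoprotein receptor, was lowest, at percentile 28.2 ± 1.3 by the highest of 4 probe sets. Chst1 and Nid1 were the other 2 below the threshold. With all probe sets of a gene averaged, 10 of 18 exceeded it, and the share of all named genes was not computed for this setting.

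The partner genes of the tip genes (ligands, receptors, enzymes and others) were measured for 37 of 46. Of these, 14 exceeded the threshold (background 38.2% of named genes) and 7 were in the top 10% on all 3 arrays (background 15.4%). Their median position was percentile 47.1 by the highest probe set, below the 65.9 of all named genes. With all probe sets of a gene averaged, 6 exceeded the threshold, whereas 20 exceeded the 40th percentile of each array by their highest probe set. The share of all named genes was computed for neither setting. The median of all named genes lies well above the 40th percentile, so the 20 are not read as an excess.

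**Figure D3:**
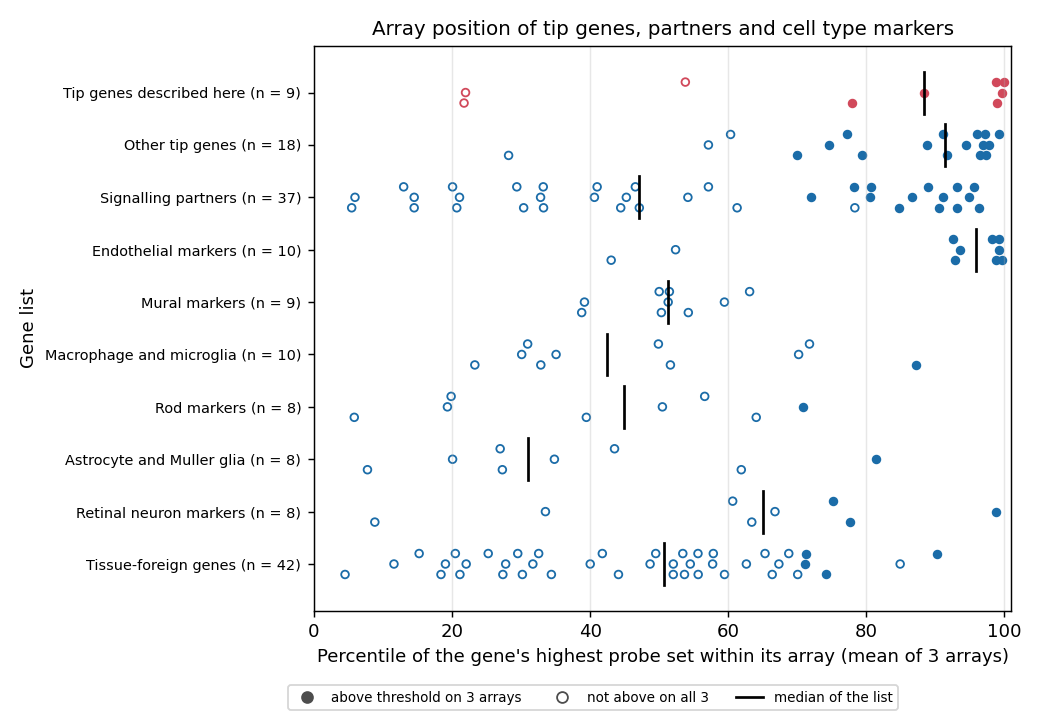
Percentile within the array of the highest probe set of each measured gene, by gene list, with filled points above the tissue-foreign threshold on all 3 arrays, open points not, and a black line at the list median. The tip genes described here spread from percentile 21.7 to 99.9, the endothelial markers lie mostly above 90 and the mural markers all lie below the threshold.

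Markers of the cells that the sort could hold were read as well. Of 10 endothelial markers 8 exceeded the threshold, with Eng highest at percentile 99.7 ± 0.065 (SD, n = 3). The other 2, Pecam1 at percentile 52.4 ± 2.5 and Egfl7 at 43.1 ± 1.9, did not. For this and the marker counts that follow, taken by the highest probe set, the background was 38.2% of named genes. Among the 8 endothelial markers above the threshold was Tek, at percentile 92.6 ± 0.26. Tek is the Tie2 gene, whose promoter drove the GFP used for sorting, so it is no independent check of the sort. Above the threshold were 0 of 9 mural markers (Rgs5 highest, Pdgfrb lowest at percentile 38.8 ± 9.1), 1 of 10 macrophage and microglial markers (Csf1r, percentile 87.2 ± 7.2), 1 of 8 rod markers (Crx), 1 of 8 astrocyte and Muller glial markers (Glul) and 3 of 8 markers of retinal neurons (Pcp2, Tubb3 and Calb2). The bipolar cell gene Pcp2 gave a strong signal by 1 of its 2 probe sets, with 1898, 1008 and 1289 in replicates 1, 2 and 3 of design A and percentile 98.8 ± 0.70, while the other lay at 14.3 ± 1.9. The lowest markers of rods, glia and neurons were Cnga1 at percentile 5.84 ± 1.6, Kcnj10 at 7.75 ± 1.1 and Pou4f1 at 8.81 ± 1.7. What part cells other than endothelium had in the signals of the tip genes was not tested. All mice had received the antibody against PDGFRb, so for the low mural readings sorting and treatment cannot be told apart. Csf1r varied between arrays, with 341, 126 and 242 in replicates 1, 2 and 3 of design A, while Lyz2 lay at percentile 23.3 ± 4.1. On the same design, the other probe set of Csf1r lay at 38.4 ± 2.3 and that of Tubb3 at 37.6 ± 2.9. The lowest of 4 probe sets of Glul lay at 3.49 ± 0.56. Rods and pericytes are known to carry Nt5e and microglia Cxcr4. Both genes were below the threshold here, but a transcript may be there where its probe set lies low. Whether such cells were in the sort was not tested by these readings. In a bulk sample, a low signal from fewer cells of a type cannot be told apart from less RNA per cell, and tip cells are a small share of the endothelium, so the share of tip cells was not measured by these values.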

How the data were processed

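Cells sorted from retinas of APB5-treated mouse pups were measured on 9 one-colour Affymetrix arrays of 3 designs, 3 replicates each. The table that the authors deposited for each design holds an intensity on a linear scale for every probe set and array. Not given in the sources used here is how signals were summarised and scaled, and detection calls were not used. Array medians were 42.9 to 44.5 on designs A and B and 32.3 to 32.9 on design C, and log2 intensities of replicates correlated across probe sets with r from 0.981 to 0.987.

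Gene names came from the annotation of the array platform. A lookup of their Entrez identifiers in RefSeq (GRCm38.p6) changed 0 symbols. Of 36701 probe sets, 29131 had 1 symbol, 724 several and 6846 none. Percentiles were computed on all probe sets of an array in Python 3.11.15 with pandas 2.3.3 and numpy 2.4.6. For log2 values, 7 zeros were set to their array's smallest value above 0. Position calls were checked on simulated arrays. Being intensities of 1 condition, the values allow no contrast and no test was run. Precision is limited by 3 arrays per design. Nothing says that replicates came from separate animals, so an SD measures the spread between arrays only and can be technical.

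The genes, the context lists and the rules were chosen with earlier results of these data known. Named besides the members were the 2 highest and the lowest gene of each partner, tip or stalk list (all where 3 or fewer were measured) and the highest and lowest of each marker list. Calb2, Chst1, Ntn1, Ntn4, Pecam1 and Tubb3, named to complete small counts, and Tek, named as the Tie2 gene, were chosen after their values were seen. Alternatives left out a replicate, and changed the threshold, the percentile reference, the probe set choice, the logarithm offset and the normalization. No gene coordinates are printed, since no genome build is stated for the probe sets.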

Additional observations from a re-analysis of the deposited data

How the results depend on the processing

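Of 58 recomputed counts and medians, 54 stayed within 1.5 times the count, or within the spread of the median between replicates. Some of these outcomes were fixed in advance, as given below. Of 68 recomputed positions of single probe sets, 63 moved by less than their own SD. Leaving out 1 of 3 replicates cannot move a mean by that SD, so most of these could not fail. The percentiles among probe sets with 1 symbol could, and there 5 of 17 positions moved by more. The 4 tip gene probe sets in the top 10% became 5 at percentile 80 and stayed 4 at percentile 95. Without any 1 replicate, the counts in the top 10% (4), above the threshold (7), with a spread over 1 log2 unit (0) and of genes whose probe sets disagree (3) were as before, and the median ran from 60.3 to 61.1. With an array left out, the top 10% count could not fall and the spread count of 0 could not rise. Adding an offset before the logarithm could not raise the spread count either. These settings are thus no check of those counts in that direction. With the 40th percentile of each array in place of the tissue-foreign threshold, 11 of 17 probe sets exceeded it, because that floor lies lower. By definition most probe sets of an array lie above that floor. The share of all named probe sets above it on all 3 arrays was not computed, so this count is not read as an excess. With percentiles taken among probe sets with 1 symbol, the median was 57.9 and the largest shift of a single probe set over all settings was 4.85 percentile points. Averaging all probe sets of a gene lowered the partner genes above the threshold to 6, against 14, and the stalk genes to 4, against 7, and the other tip genes to 10, against 15. No share of all named genes was computed beside these averaged counts. The alternatives for the disagreement count and, except for this averaging, for the gene lists were chosen after seeing the data. No paired analysis was possible because the 3 designs carry different probe sets of 1 condition and no groups were compared.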

Other observations

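Genes linked to stalk cells and Notch response were listed as well. Of 9 such genes 8 were measured and 7 exceeded the tissue-foreign threshold by their highest probe set, against 38.2% of all named genes, and 3 were in the top 10% on all 3 arrays, against 15.4%. With all probe sets of a gene averaged, 4 exceeded the threshold, and the share of all named genes was not computed for this setting. Flt1, the VEGF receptor that acts as a decoy, read 1978, 2542 and 2296 on design C, at percentile 99.94 ± 0.0049 (SD, n = 3), and the lowest of its 4 probe sets lay at percentile 94.0 ± 0.28 on design A. Nrarp, a Notch target, read 225, 306 and 234 on design B, at percentile 93.1 ± 2.1, but its other probe set lay at 13.0 ± 2.5. Heyl, another Notch target, lay at percentile 25.2 ± 1.8 on design C. The sorted pool did not separate tip from stalk cells.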
